A study of Homo sapiens with 12 samples.

Results

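Transcripts of 55 genes that carry out DNA replication were followed in LN229 cells under 3 supplies of glucose and acetate. LN229 is an established human glioblastoma cell line. The genes come from a given list of names and fall into 8 roles: origin licensing (9 genes), the replicative helicase (13), the firing kinase and fork protection (6), DNA polymerases and primase (9), the sliding clamp and its loader (6), single-strand binding and Okazaki fragment processing (6), deoxynucleotide (dNTP) synthesis (4) and chromatin assembly (2). All 55 were found among the 22257 genes counted, with 1 transcript standing for each gene, and all 55 passed the low-count filter that left 14416 genes to test. The cells were grown in 6-well dishes to 80% confluence and then held for 24 hours in RPMI with 10% dialyzed serum. The 1 mM group had 1 mM glucose, the acetate group had 1 mM glucose and 5 mM acetate, and the 10 mM group had 10 mM glucose, with 4 libraries in each. All libraries come from this 1 line. The labels do not say whether replicates were grown as independent cultures. The p-values therefore describe only the spread of these libraries, which may be technical.

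Replication starts in G1, when the origin recognition complex (ORC) and CDC6, together with CDT1, load the MCM2 to MCM7 ring onto DNA, a step called licensing. In S phase the kinase CDC7 with DBF4 and the cyclin-dependent kinases turn the ring into a moving helicase with CDC45 and GINS, and polymerases, the PCNA clamp, RPA and nucleases follow it along both strands. Many of these genes are targets of E2F transcription factors, which act when cells pass from G1 into S phase, and the nucleotides come from ribonucleotide reductase, thymidylate synthase and thymidine kinase.

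Each library held between 24.4 and 27.2 M counts (M, mega) over 1 transcript per gene, and the common biological coefficient of variation was 8.51%. In 2 libraries, 1 mM replicate 3 and acetate replicate 1, the deviation of genes from their mean followed transcript length most strongly. Spearman's rho across genes, which are not independent replicates, was −0.60 and −0.57 there and between −0.24 and 0.30 in the other 10. The counts led with here are therefore also given without those libraries. Of the markers of the line, VIM averaged 5249 CPM at 1 mM glucose, CD44 1049 and NES 452, whereas GFAP, the astrocyte filament, averaged only 0.980 CPM (CPM, counts per megacount of a library scaled by TMM). The immune and endothelial markers had 2 of 6 genes above the filter and summed to 54.7 to 65.0 CPM at 1 mM, 63.0 to 70.2 with acetate and 19.0 to 23.1 at 10 mM, nearly all of it CD68. PTPRC, AIF1, PECAM1 and CDH5 each averaged 0.447 CPM or less in every group. The neuron markers had 2 of 4 above the filter and summed to 105 to 137, 110 to 125 and 40.3 to 45.7 CPM, mostly SYT1, with STMN2 at 0 counts in all 12 libraries. The 4 fibroblast markers summed to 29.7 to 34.8, 38.5 to 41.2 and 38.0 to 43.6 CPM. The part of these markers in the results was not tested.

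Cells at 10 mM glucose had higher levels of most of the replication transcripts than cells at 1 mM, with CDC6 the main exception. Of the 55 genes, 46 rose and 3 fell (CDC6, ORC4 and RFC1), where rise and fall mean an adjusted p under 0.05 in edgeR's quasi-likelihood test. Over all 14416 genes tested, 33.7% were called higher and 33.8% lower, together 67.5%. The median log2 fold change was 0.73 over the 55 genes and 0.001 over all genes, and single values ran from −0.98 (CDC6) to 1.40 (CLSPN). A rise of at least 1.5-fold was called in 31 of the 55, against 16% of all genes, and 10 of these rose at least 2-fold. In 45 of the 55 all 4 libraries at 10 mM lay above all 4 at 1 mM, and in 2 they lay below. The same was true of 31.1% and 30.3% of all genes. Added up, the 55 transcripts took 4230, 4390, 4781 and 4492 CPM at 1 mM, 4955, 4910, 4881 and 5175 CPM with acetate and 7009, 7046, 7285 and 7189 CPM at 10 mM. The 3 groups did not overlap in this sum, and those with acetate lay close above those at 1 mM. Fewer cells in S phase and less of these RNAs per cell cannot be told apart in bulk libraries. Without the 2 libraries that stand apart, 48 rose and 3 fell. Scaling by library totals in place of TMM moved the median of all genes to 0.14 and that of the 55 to 0.87, and left 48 higher and 1 lower.

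**Figure D1:**
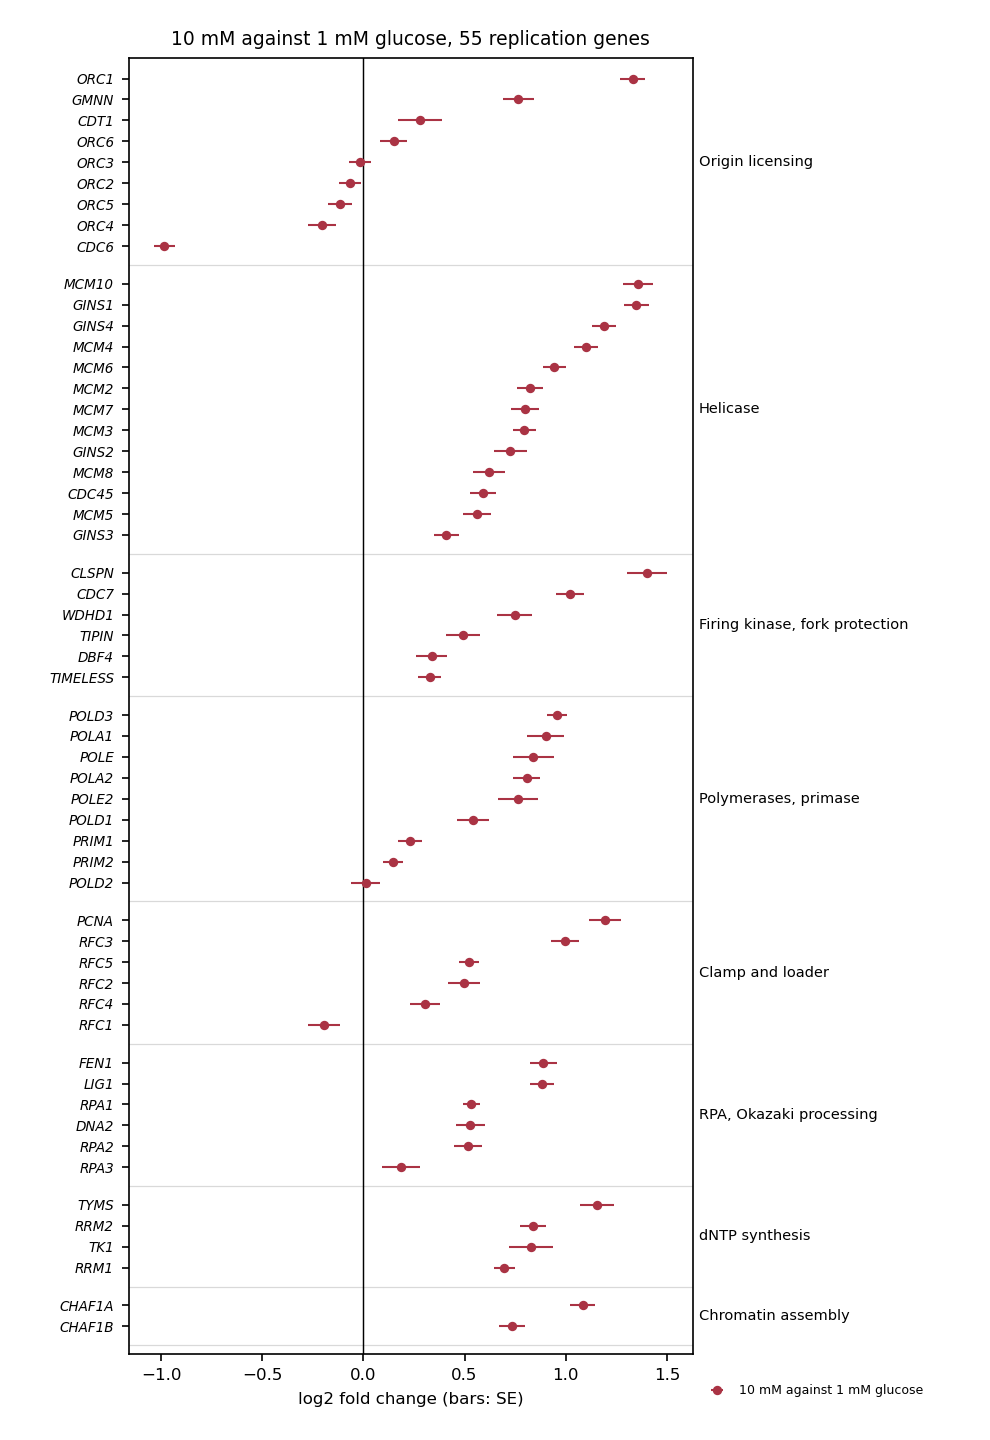
Log2 fold change of each of the 55 genes at 10 mM against 1 mM glucose (points, with SE as bars), grouped by role and ordered within a role. Values run from −0.98 for CDC6 to 1.40 for CLSPN, and the origin licensing genes lie on both sides of 0 while all 13 helicase genes lie above it.

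The licensing genes moved in different directions: 3 of 9 rose at 10 mM (ORC1, GMNN and CDT1), 2 fell (CDC6 and ORC4) and 4 were not called, with a median log2 fold change of −0.02. These shares, 33.3% and 22.2%, are near and below the 33.7% and 33.8% of all genes called higher and lower. CDC6, the loader that ORC recruits to bring in the MCM ring, had 233, 236, 217 and 245 CPM at 1 mM glucose, 206, 208, 211 and 204 CPM with acetate, and 114, 116, 119.9 and 122 CPM at 10 mM glucose (replicates 1 to 4, as in all lists of values here). Every 10 mM library was below every other library, and the acetate libraries lay just below those at 1 mM. CDC6 fell by 0.98 on the log2 scale at 10 mM (SE 0.05, edgeR adjusted p = 3.1e-10), from 233 ± 11.9 to 118 ± 3.74 CPM (SD, n = 4). ORC1, the largest subunit of ORC, went the other way, with 20.3, 21.4, 21.8 and 21.2 CPM at 1 mM glucose, 22.4, 25.7, 26.8 and 26.6 CPM with acetate, and 51.9, 52.9, 54.2 and 54.1 CPM at 10 mM glucose. Its 10 mM libraries stood far above the rest, and the log2 fold change was 1.33 ± 0.06 (SE, edgeR adjusted p = 1.0e-10), or 2.52-fold. Of the other ORC subunits, ORC2 differed by −0.07 ± 0.05, ORC3 by −0.02 ± 0.06, ORC5 by −0.11 ± 0.06 and ORC6 by 0.15 ± 0.07 (log2, SE), and none of these was called. ORC2 was called with a correction for transcript length and GC content (−0.11, adjusted p = 0.0429). ORC6 was called after the same correction (0.32, adjusted p = 6.1e-06), with library totals (0.29, adjusted p = 0.0014), without the 2 libraries that stand apart (0.00877), with a stricter filter (0.0438) and without 1 mM replicate 3 (0.0248) or 10 mM replicate 1 (0.0361). With library totals the values of ORC2, ORC3 and ORC5 turned positive and stayed uncalled, and so did those of ORC3 and ORC5 after the correction.

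ORC4, a further ORC subunit, had 30.7, 32.9, 29.4 and 34.8 CPM at 1 mM glucose, 38.0, 31.4, 33.4 and 34.0 CPM with acetate, and 26.9, 27.8, 27.3 and 28.8 CPM at 10 mM glucose, and its 10 mM libraries were lowest by a small margin. The difference was −0.21 ± 0.07 (log2, SE, edgeR adjusted p = 0.0157), and the call ended with library totals (−0.07, adjusted p = 0.434) and without 1 mM replicate 4 (−0.17, adjusted p = 0.0584). CDT1, which brings MCM rings to ORC and CDC6, had 45.7, 35.8, 55.9 and 42.3 CPM at 1 mM glucose, 50.2, 44.0, 50.6 and 47.0 CPM with acetate, and 49.97, 54.3, 60.7 and 52.8 CPM at 10 mM glucose. Its groups overlapped, since 1 mM replicate 3 was higher than 3 of the 10 mM libraries. The difference of 0.28 ± 0.11 (log2, SE, edgeR adjusted p = 0.0331) lost its call without 1 mM replicate 1 (adjusted p = 0.0559), 2 (0.1) or 4 (0.088), with only the 8 libraries compared (0.0515), or without 10 mM replicate 2 (0.0586) or 3 (0.107). GMNN, the geminin that binds and inhibits CDT1, rose from 27.7 ± 1.51 to 47.1 ± 1.71 CPM (SD, n = 4), a log2 fold change of 0.77 ± 0.08. The groups of GMNN at 1 mM and 10 mM did not overlap.

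**Figure D2:**
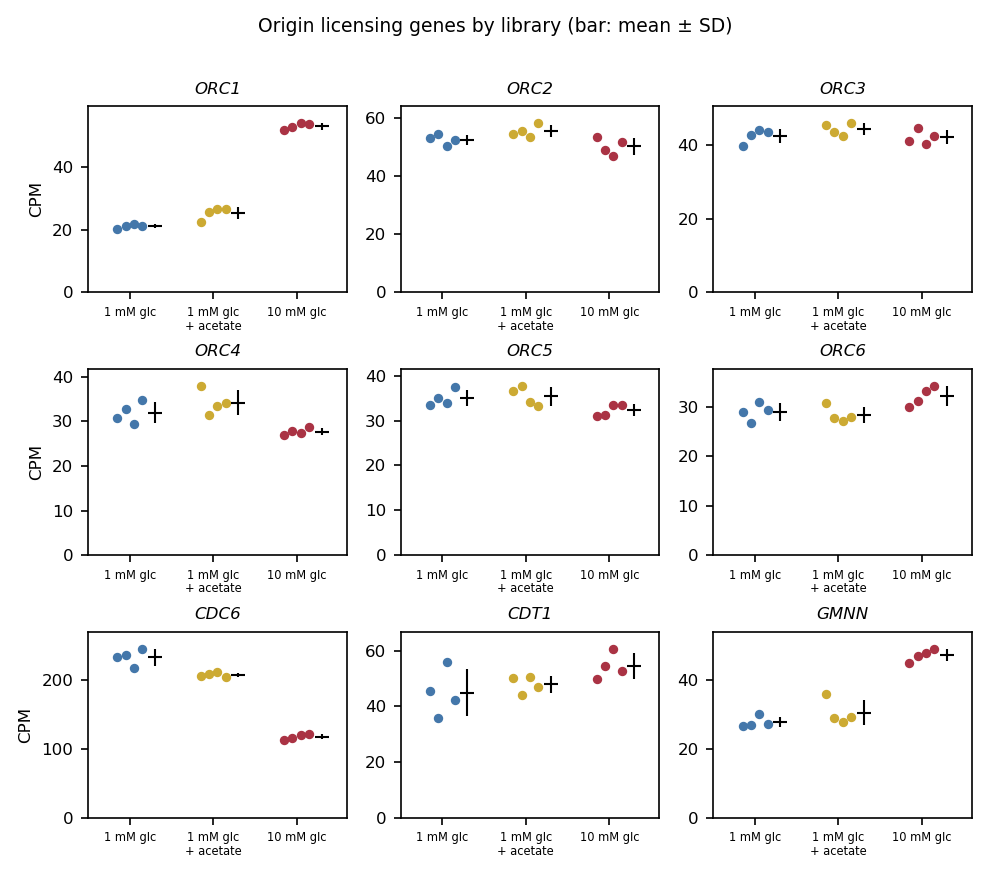
CPM of the 9 origin licensing genes in each of the 12 libraries (points, replicates 1 to 4 from left to right) with the mean and SD beside them, on axes that start at 0. CDC6 is lowest and ORC1 highest in the 10 mM libraries, while ORC2, ORC3 and ORC5 overlap between 1 mM and 10 mM.

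All 13 helicase genes rose at 10 mM, with a median log2 fold change of 0.80. Among the 6 ring subunits, MCM4 had 158, 168, 165 and 165 CPM at 1 mM glucose, 184, 205, 209 and 227 CPM with acetate, and 350.4, 353, 353 and 350 CPM at 10 mM glucose, and its 10 mM libraries lay more than 100 CPM above every other library. Its log2 fold change of 1.10 ± 0.06 (SE, edgeR adjusted p = 5.4e-10) was the largest of the ring. MCM6 had 123, 133, 145 and 134 CPM at 1 mM glucose, 155, 162, 162 and 176 CPM with acetate, and 256, 252, 259 and 260.1 CPM at 10 mM glucose, with the groups in the same order. MCM2 had 106, 109.8, 126 and 112 CPM at 1 mM glucose, 136, 141, 136 and 151 CPM with acetate, and 205, 191, 213 and 195 CPM at 10 mM glucose. MCM3 had 175, 189.6, 213 and 192 CPM at 1 mM glucose, 235, 237, 243 and 256 CPM with acetate, and 341, 326, 342 and 329 CPM at 10 mM glucose. In each of MCM2, MCM3, MCM4 and MCM6 the 3 groups did not overlap and the acetate libraries lay between the others. MCM7 had 255, 249.9, 313 and 272 CPM at 1 mM glucose, 311, 300.3, 295 and 307 CPM with acetate, and 469.5, 444, 509 and 471 CPM at 10 mM glucose. MCM5 had 136, 136, 169 and 144 CPM at 1 mM glucose, 149, 148, 157 and 159 CPM with acetate, and 211, 209, 235 and 208 CPM at 10 mM glucose. In MCM5 and MCM7 the highest 1 mM library was replicate 3, which passed all acetate libraries, and the 10 mM libraries were still above all others. The log2 fold changes were 0.94 ± 0.06 for MCM6, 0.82 ± 0.06 for MCM2, 0.80 ± 0.07 for MCM7, 0.80 ± 0.06 for MCM3 and 0.56 ± 0.07 for MCM5 (SE), with edgeR adjusted p between 2.5e-09 and 6.0e-06. Per kb of transcript, MCM7 had 92.2 ± 9.73 CPM per kb at 1 mM and MCM2 31.3 ± 2.44 (SD, n = 4). By this measure, which depends on the lengths used, transcripts of subunits that sit in the ring in equal number were at unequal levels. Of the exon bases of MCM2, 30.7% lie opposite another annotated gene (AC023593.1), and reads of the pair cannot be told apart if strand was not used in counting.

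Among the factors that complete the helicase, MCM10, which helps it start to unwind, had 34.5, 39.6, 37.4 and 39.3 CPM at 1 mM glucose, 45.3, 51.7, 55.2 and 58.8 CPM with acetate, and 97.3, 93.9, 96.0 and 98.9 CPM at 10 mM glucose. Its groups did not overlap, and its 2.56-fold rise was the largest of the role (log2 1.36 ± 0.07, SE, edgeR adjusted p = 6.9e-10). The GINS subunits, which act as 1 complex, spanned a wide range: GINS1 rose by 1.35 ± 0.06, GINS4 by 1.19 ± 0.06, GINS2 by 0.73 ± 0.08 and GINS3 by 0.41 ± 0.06 (log2, SE). GINS3, the smallest rise of the helicase genes, had 22.3, 19.8, 21.1 and 20.6 CPM at 1 mM glucose, 22.9, 22.4, 22.6 and 20.8 CPM with acetate, and 25.9, 28.3, 28.9 and 28.2 CPM at 10 mM glucose, with the 10 mM libraries above the rest by a few CPM. CDC45, the helicase cofactor, had 50.4, 52.2, 60.6 and 57.4 CPM at 1 mM glucose, 65.9, 61.1, 62.3 and 65.5 CPM with acetate, and 79.4, 81.3, 89.3 and 82.8 CPM at 10 mM glucose, and rose by 0.59 ± 0.06 (log2, SE). MCM8, a relative of the ring that works in recombination repair, rose by 0.62 ± 0.08. Exons of GINS4 and GINS3 lie opposite other annotated genes over 21.2% and 16.5% of their bases.

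All 6 firing and fork protection genes rose, with a median of 0.62. CLSPN, the adaptor claspin that carries the checkpoint signal at the fork, had 38.7, 42.4, 32.2 and 37.2 CPM at 1 mM glucose, 37.8, 44.4, 49.2 and 54.1 CPM with acetate, and 97.9, 105, 97.6 and 97.3 CPM at 10 mM glucose. The 10 mM libraries were more than 40 CPM above every other library, and the log2 fold change of 1.40 ± 0.10 (SE, edgeR adjusted p = 1.3e-08) was the highest of the 55. TIMELESS, which protects forks together with TIPIN, had 148, 148, 140 and 141 CPM at 1 mM glucose, 143, 169, 166 and 166 CPM with acetate, and 184, 179.7, 177 and 183 CPM at 10 mM glucose. It rose least in this role, by 0.33 ± 0.06 (log2, SE, edgeR adjusted p = 1.2e-04), and its 10 mM libraries were above all at 1 mM. Its partner TIPIN rose by 0.49 ± 0.09. In the firing kinase the catalytic CDC7 rose by 1.02 ± 0.07 and its activator DBF4 by 0.34 ± 0.08 (log2, SE). WDHD1, which ties polymerase alpha to the helicase, rose by 0.75 ± 0.09.

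Of the 9 polymerase and primase genes 8 rose, with a median of 0.76, and POLD2 was not called. POLD3, an accessory subunit of the lagging-strand polymerase delta, had 31.9, 34.3, 34.0 and 36.5 CPM at 1 mM glucose, 39.0, 39.9, 39.5 and 39.1 CPM with acetate, and 64.4, 67.3, 65.9 and 67.7 CPM at 10 mM glucose. Its groups did not overlap, and it rose most in this role, by 0.96 ± 0.05 (log2, SE, edgeR adjusted p = 4.8e-10). The catalytic subunits rose by 0.90 ± 0.09 for POLA1 (polymerase alpha), 0.84 ± 0.10 for POLE (epsilon) and 0.54 ± 0.08 for POLD1 (delta), and the second subunits by 0.81 ± 0.07 for POLA2 and 0.76 ± 0.10 for POLE2 (log2, SE). POLD2, the second subunit of polymerase delta, differed by 0.01 ± 0.07 with a 95% interval of −0.13 to 0.15. After a correction for transcript length and GC content within each library, POLD2 was 0.13 (adjusted p = 8.5e-04). PRIM2, the large primase subunit, had 34.2, 37.0, 35.0 and 36.8 CPM at 1 mM glucose, 35.2, 33.6, 33.4 and 34.1 CPM with acetate, and 38.9, 38.3, 40.0 and 41.1 CPM at 10 mM glucose, and its 10 mM libraries were only a few CPM above the 1 mM libraries. Its rise of 0.15 ± 0.05 (log2, SE, edgeR adjusted p = 0.0168) lost its call without 1 mM replicate 1 (adjusted p = 0.0566) or 10 mM replicate 4 (0.0547). The catalytic primase subunit PRIM1 rose by 0.23 ± 0.06. PRIM2 has near-identical partial copies in the genome, and POLA2 and PRIM1 share 53.7% and 26% of their exon bases with genes annotated on the same strand, so their counts are less certain.

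Of the clamp and its loader, 5 genes rose and RFC1 fell, with a median of 0.51. PCNA, the ring that holds polymerases on DNA, had 150.4, 153, 196 and 171 CPM at 1 mM glucose, 215, 192, 183 and 204 CPM with acetate, and 375, 370.3, 392 and 398 CPM at 10 mM glucose. Its 10 mM libraries stood clear of the others, while 1 mM replicate 3 reached into the acetate range. It rose 2.29-fold (log2 1.20 ± 0.08, SE, edgeR adjusted p = 6.1e-09), and per kb of transcript it was the most abundant of the 55 in all 3 groups, with 123, 146 and 282 CPM per kb. The loader subunits RFC2 to RFC5 rose by 0.50 ± 0.08, 0.99 ± 0.07, 0.30 ± 0.08 and 0.52 ± 0.05 (log2, SE). RFC1, the large loader subunit, had 125, 133, 100.3 and 113 CPM at 1 mM glucose, 111, 125, 127 and 134 CPM with acetate, and 102, 106, 98.9 and 105 CPM at 10 mM glucose, and its groups overlapped. Its difference of −0.20 ± 0.08 (log2, SE, edgeR adjusted p = 0.0425) was not called with the replicate number as a block (−0.19, adjusted p = 0.0512), with limma-voom (0.0512) or with library totals (−0.05, adjusted p = 0.558). The call also ended without 1 mM replicate 1 (−0.17, adjusted p = 0.11) or 2 (−0.14, adjusted p = 0.135) and without any single 10 mM library (adjusted p = 0.0583 to 0.0998).

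Among the single-strand binding and Okazaki genes 5 of 6 rose, with a median of 0.53. FEN1, the flap endonuclease that trims Okazaki fragments, had 107, 108, 124 and 115 CPM at 1 mM glucose, 135, 116, 112 and 119.2 CPM with acetate, and 202, 209, 221 and 209 CPM at 10 mM glucose. The 10 mM libraries were far above the others, which overlapped, and the log2 fold change was 0.89 ± 0.07 (SE, edgeR adjusted p = 2.2e-08). LIG1, the ligase that joins the fragments, rose by 0.88 ± 0.06, and DNA2, a nuclease for long flaps, by 0.53 ± 0.07 (log2, SE). RPA2, the middle subunit of the single-strand binding complex, had 48.7, 46.7, 56.2 and 54.0 CPM at 1 mM glucose, 57.1, 50.6, 50.1 and 54.0 CPM with acetate, and 70.6, 70.3, 78.7 and 75.2 CPM at 10 mM glucose, again with only the 10 mM libraries set apart. RPA2 rose by 0.52 ± 0.07 (log2, SE, edgeR adjusted p = 9.7e-06) and RPA1, the large subunit, by 0.53 ± 0.04. RPA3, the small subunit, differed by 0.19 ± 0.10 and was not called (edgeR adjusted p = 0.101), but was called after the length and GC correction (0.30, adjusted p = 0.00152), with library totals (0.33, adjusted p = 0.00851), without the 2 libraries that stand apart (adjusted p = 3.9e-04) and without 1 mM replicate 3 (0.28, adjusted p = 0.00801).

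The 4 dNTP synthesis genes all rose, with a median of 0.83. RRM2, the small subunit of ribonucleotide reductase, had 305, 339, 369 and 352 CPM at 1 mM glucose, 394, 374, 364 and 409.8 CPM with acetate, and 576, 617, 612 and 638 CPM at 10 mM glucose. RRM1, the large subunit, had 154, 166, 167 and 168 CPM at 1 mM glucose, 171, 183, 172 and 190.1 CPM with acetate, and 258, 269, 259 and 273 CPM at 10 mM glucose. In both, the 10 mM libraries were above all others. TYMS, which makes thymidylate from deoxyuridylate, had 90.8, 94.2, 119.5 and 99.6 CPM at 1 mM glucose, 124, 111, 102 and 115 CPM with acetate, and 217, 219, 237 and 227 CPM at 10 mM glucose. TK1, the thymidine salvage kinase of dividing cells, had 156, 147, 222 and 164 CPM at 1 mM glucose, 188, 161, 159.7 and 167 CPM with acetate, and 295, 294, 339.6 and 294 CPM at 10 mM glucose. In TYMS and TK1 the 1 mM and acetate libraries overlapped, 1 mM replicate 3 was the highest of the 1 mM libraries, and the 10 mM libraries lay above all of them. The log2 fold changes were 1.15 ± 0.08 for TYMS, 0.84 ± 0.06 for RRM2, 0.83 ± 0.11 for TK1 and 0.70 ± 0.05 for RRM1 (SE), with edgeR adjusted p between 1.3e-08 and 8.4e-06. ENOSF1 runs opposite to TYMS over 58.2% of the exon bases of TYMS, and 27.9% of the exon bases of RRM2 are shared with another gene on the same strand.

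**Figure D3:**
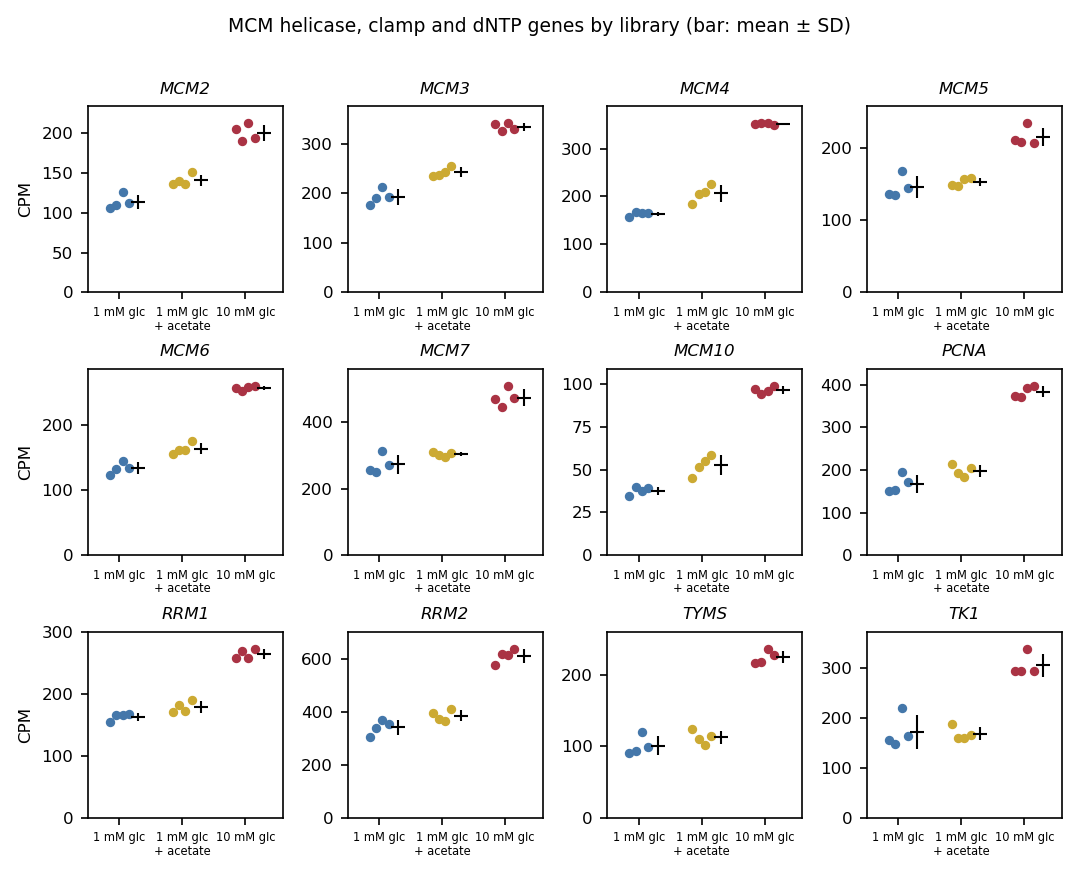
CPM of the 6 MCM ring genes, MCM10, PCNA and the 4 dNTP genes in each of the 12 libraries (points, replicates 1 to 4 from left to right) with the mean and SD beside them, on axes that start at 0. The 10 mM libraries are highest in every panel, and for MCM5, MCM7, PCNA, TYMS and TK1 the third 1 mM library is the highest of its group.

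The 2 chromatin assembly genes also rose. CHAF1A, the large subunit of the chaperone that puts histones onto new DNA, had 38.4, 39.3, 44.9 and 36.6 CPM at 1 mM glucose, 45.8, 47.8, 46.8 and 50.7 CPM with acetate, and 85.0, 83.3, 86.1 and 82.9 CPM at 10 mM glucose. CHAF1B, its middle subunit, had 9.32, 8.87, 9.63 and 9.01 CPM at 1 mM glucose, 10.7, 11.6, 11.4 and 12.0 CPM with acetate, and 16.0, 15.9, 14.4 and 15.1 CPM at 10 mM glucose. The groups at 1 mM and 10 mM did not overlap in either, and the log2 fold changes were 1.08 ± 0.06 and 0.74 ± 0.06 (SE, edgeR adjusted p = 1.3e-09 and 1.2e-07).

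E2F factors are known regulators of many of these genes, and their promoters were searched for 4 spellings of the E2F element (TTTCCCGC, TTTCGCGC, TTTGCCGC and TTTGGCGC, on both strands, where 2 spellings can overlap each other). Promoters ran from 250 bases before to 50 after the gene start in RefSeq (GRCh38.p14), and 48 of the 55 genes had one there. At least 1 spelling occurred in 20 of the 48 (41.7%), against 5.25% of the 9903 promoters of tested genes and 3.33% of all 27305 promoters. It was found in 8 of 10 helicase genes, 4 of 8 polymerase genes, 3 of 9 licensing genes (CDC6, CDT1 and ORC3) and 1 of 4 dNTP genes (TYMS). Of the 40 genes with a promoter that rose at 10 mM, 18 held a spelling (45%), and so did CDC6, which fell, and ORC3, which was not called. The 12 sites below show the match in capitals within 30 bases of the gene's own strand, 5′ to 3′, with positions counted from the gene start. Where the spelling lies on the other strand the capitals are its reverse complement. They were picked to cover all roles but 2 and to set the site of CDC6 beside those of genes that rose.
CDC6, chr17:40287875-40287904, plus strand, capitals from +8 to +15: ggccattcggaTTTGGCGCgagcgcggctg
CDT1, chr16:88803743-88803772, plus strand, capitals from −35 to −28: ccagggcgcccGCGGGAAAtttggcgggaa
MCM2, chr3:127598404-127598433, plus strand, capitals from +3 to +14: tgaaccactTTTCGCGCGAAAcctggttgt
MCM3, chr6:52284728-52284757, minus strand, capitals from −4 to +4: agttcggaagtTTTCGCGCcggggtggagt
MCM6, chr2:135876513-135876542, minus strand, capitals from −90 to −79: ttggtcaggTTTGGCGCGAAAtctccagct
MCM7, chr7:100101388-100101417, minus strand, capitals from −9 to −2: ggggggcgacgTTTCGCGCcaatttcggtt
GINS1, chr20:25407667-25407696, plus strand, capitals from +6 to +13: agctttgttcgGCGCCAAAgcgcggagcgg
CLSPN, chr1:35769965-35769994, minus strand, capitals from −5 to +3: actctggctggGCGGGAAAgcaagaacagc
POLA2, chr11:65261898-65261927, plus strand, capitals from −53 to −46: ttggctcccggTTTCGCGCatgcgtgcact
POLE2, chr14:49688201-49688230, minus strand, capitals from −5 to +3: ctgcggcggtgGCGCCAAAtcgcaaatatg
PCNA, chr20:5126663-5126692, minus strand, capitals from −59 to −52: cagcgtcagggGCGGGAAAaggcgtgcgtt
TYMS, chr18:657603-657632, plus strand, capitals from −39 to −32: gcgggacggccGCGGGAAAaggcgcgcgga

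In MCM2 and MCM6 the capitals span 12 bases because 2 spellings on opposite strands overlap. CCAAT, the box bound by NF-Y, occurred on either strand in 56.2% of the 48 promoters, against 37% of tested genes. TTTGAA, the cell cycle homology element of mitotic genes, occurred in 4.17%, against 10% of tested genes. A match is only a run of letters and does not show that a factor was bound. CDC6 and ORC1, the licensing genes that moved furthest in opposite directions, are shown over the 150 bases that end near the gene start (GRCh38.p14, gene strand, 5′ to 3′).
CDC6, chr17:40287729-40287878, plus strand: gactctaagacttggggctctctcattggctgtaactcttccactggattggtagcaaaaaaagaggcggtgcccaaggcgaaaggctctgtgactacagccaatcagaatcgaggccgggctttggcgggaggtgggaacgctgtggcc
ORC1, chr1:52404424-52404573, minus strand: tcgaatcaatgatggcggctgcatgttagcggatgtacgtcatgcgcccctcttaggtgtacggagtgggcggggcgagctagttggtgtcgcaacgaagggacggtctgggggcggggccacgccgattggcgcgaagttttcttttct

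Neither stretch shown here held any of the 4 spellings, since the match of CDC6 starts at +8, after its stretch ends. ORC1 held none in its whole promoter, which says only that these letters are not there.

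Ratios of transcripts within a library, each divided by its length, show how the balance between partners differed and do not depend on the scaling of libraries. They are descriptions, with no test. CDC6 to ORC1 was 12.8, 12.4, 11.1 and 13.0 at 1 mM, 10.3, 9.05, 8.83 and 8.58 with acetate and 2.45, 2.45, 2.47 and 2.52 at 10 mM. The 3 groups did not overlap, and the ratio was lowest at 10 mM. CDC6 and ORC1 are the licensing genes that moved furthest in opposite directions, so this ratio restates their changes and adds no support for them. ORC1 to ORC3, a subunit whose level was not called different, was 0.387 to 0.406 at 1 mM, 0.393 to 0.502 with acetate and 0.943 to 1.07 at 10 mM. By this measure ORC1 was well below ORC3 at 1 mM and close to it at 10 mM, which follows from the rise of ORC1. Neither gene had a marked transcript, and the way reads were counted is not given. The level of 1 gene against the other therefore depends on the lengths used. CDT1 to its inhibitor GMNN was 0.516 to 0.727, 0.547 to 0.711 and 0.420 to 0.495, lower in all 10 mM libraries than in any other. RRM2 to RRM1 covered a narrow range, with 1.78 to 1.99, 1.83 to 2.06 and 2.00 to 2.12, and the 10 mM libraries lay just above those at 1 mM. RRM2 to RRM2B, the small subunit that p53 induces, was 1.000 to 1.51, 1.18 to 1.33 and 2.28 to 2.44. By level per kb, CDC6 ranked 6 of the 55 at 1 mM, 7 with acetate and 19 at 10 mM.

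**Figure D4:**
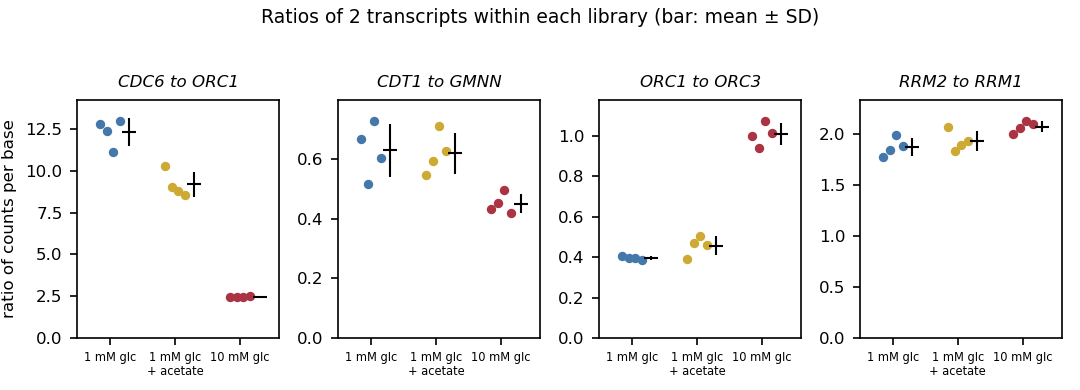
Ratio of the counts per base of 2 transcripts within each of the 12 libraries (points, replicates 1 to 4 from left to right), with the mean and SD beside them, on axes that start at 0. CDC6 to ORC1 is near 2.48 in the 10 mM libraries and above 8 in all others, while RRM2 to RRM1 stays between 1.78 and 2.12.

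With acetate at 1 mM glucose a smaller number of these transcripts was called higher. This comparison shares its 1 mM libraries with the glucose comparison, so the values are set side by side without a measure of agreement. With acetate 21 of the 55 genes rose and 1, CDC6, fell, against 6.65% and 7.09% of all genes tested (13.7% called either way). The median log2 fold change was 0.17 over the 55 and 0.002 over all genes, and no called rise reached 1.5-fold, which 1.25% of all genes did. In 21 genes all acetate libraries lay above all 1 mM libraries, and in 1 they lay below, against 7.35% and 8.2% of all genes. These 21 include RPA1 and RRM1, which were not called. Without the 2 libraries that stand apart the count was 38 higher and 1 lower, and with the length and GC correction it was 35 and 1. With library totals it was 28 and 0, and with only the 8 libraries compared it was 14 and 0, where the calls of CDC6, CDC45, CHAF1A, ORC1, POLA1, POLD3, PRIM1 and TIPIN ended (adjusted p = 0.0507 to 0.124). Leaving out 1 library at a time gave 15 (without 1 mM replicate 1) to 30 (without 1 mM replicate 3) higher.

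By role, the acetate rise was called in 8 of 13 helicase genes (median 0.26), 3 of 6 firing and fork protection genes (CDC7, WDHD1 and TIPIN, median 0.30), 4 of 9 polymerase genes (POLA1, PRIM1, POLD3 and POLE2, 0.21), 2 of 6 clamp genes (RFC3 and RFC5, 0.21), 1 of 6 single-strand binding and Okazaki genes (DNA2, 0.11), both chromatin assembly genes (0.29) and 1 of 9 licensing genes (ORC1, 0.08). In that order the shares were 61.5%, 50%, 44.4%, 33.3%, 16.7%, 100% and 11.1%, against 6.65% of all genes called higher. None of the 4 dNTP genes was called by edgeR, DESeq2 or limma-voom, although 2 had an unadjusted p under 0.05 in edgeR. The licensing and dNTP counts are near the share of all genes and, in roles this small, do not set them apart. Without the 2 libraries that stand apart edgeR called 3 of the 4, namely RRM1 (0.0216), RRM2 (0.0123) and TYMS (0.00931, adjusted p). RRM2 and TYMS were also called without 1 mM replicate 3, RRM1 and TYMS with the length and GC correction, and RRM1 and RRM2 with library totals (adjusted p = 0.00739 to 0.0418). MCM10, whose per-library values are given above, rose most, by 0.48 ± 0.07 (log2, SE, edgeR adjusted p = 7.2e-04). POLE2, the second subunit of polymerase epsilon, had 6.51, 8.17, 7.76 and 8.73 CPM at 1 mM glucose, 11.2, 10.4, 9.69 and 9.83 CPM with acetate, and 11.2, 14.4, 13.4 and 13.9 CPM at 10 mM glucose. Its acetate libraries all lay above those at 1 mM, and it rose by 0.40 ± 0.10 (edgeR adjusted p = 0.0185), a call that ended without 1 mM replicate 1 (0.32, adjusted p = 0.0601). WDHD1 had 33.2, 41.4, 34.2 and 35.8 CPM at 1 mM glucose, 39.6, 45.8, 49.0 and 52.5 CPM with acetate, and 57.9, 64.3, 59.4 and 61.1 CPM at 10 mM glucose. Its acetate and 1 mM libraries overlapped, and its rise was 0.37 ± 0.09 (edgeR adjusted p = 0.0115). DNA2 rose by 0.36 ± 0.07, MCM3 by 0.33 ± 0.06, RFC3 by 0.33 ± 0.07 and MCM4 by 0.33 ± 0.06 (log2, SE). MCM2 rose by 0.31 ± 0.06 and MCM6 by 0.29 ± 0.06, while MCM7 (0.16 ± 0.07) and MCM5 (0.07 ± 0.07) were not called. Without 1 mM replicate 3, which is the highest 1 mM library in both, MCM7 was called (0.23, adjusted p = 0.0102), as it was with the length and GC correction (0.00712). Without both libraries that stand apart MCM7 (0.00372) and MCM5 (0.0346) were called. PCNA (0.24 ± 0.08, adjusted p = 0.0546) was likewise called only without that library (0.33, adjusted p = 0.00332) among the libraries left out singly. It was also called by DESeq2 (adjusted p of 0.0369), by limma-voom (0.0486), with library totals in place of TMM (0.0305), without the 2 libraries that stand apart (7.5e-04), and with the length and GC correction without (4.2e-04) or with (7.9e-04) the replicate block.

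The smallest called changes with acetate were CDC6, POLD3 and CDC45. CDC6 was −0.17 ± 0.05 (log2, SE, edgeR adjusted p = 0.0351). Leaving out single libraries ended the call for 1 mM replicate 1 (adjusted p = 0.0772), 2 (0.0549) or 4 (0.117), and for acetate replicate 2 (0.0796), 3 (0.0631) or 4 (0.0974), and so did the replicate block (−0.17, adjusted p = 0.0594), library totals (0.0926) and the fit without a filter (0.064). POLD3 rose by 0.21 ± 0.05 (edgeR adjusted p = 0.0157), and not without 1 mM replicate 1 (0.17, adjusted p = 0.0556). CDC45 was 0.21 ± 0.06 (edgeR adjusted p = 0.0446) and lost its call without any 1 library other than 1 mM replicate 3, with adjusted p from 0.0614 (without acetate replicate 1) to 0.135 (without 1 mM replicate 1). The call of CDC45 also ended in edgeR with DESeq2 size factors (adjusted p = 0.0513) and without a filter (0.0609). POLA1 (0.29 ± 0.09) was not called without 1 mM replicate 1, 3 or 4 or any acetate library but the first (adjusted p = 0.0883 to 0.144). Nor was POLA1 called in edgeR with DESeq2 size factors (adjusted p = 0.0539) or by limma-voom (0.0513). TIPIN (0.31 ± 0.09) was not called when acetate replicate 2 or 4, or any 1 mM replicate but the third, was left out (0.051 to 0.0967), and CHAF1A (0.26 ± 0.06) not without acetate replicate 4 (0.0501) and at the threshold without 1 mM replicate 4 (0.05). In the licensing role ORC1 rose by 0.26 ± 0.06, against 1.33 ± 0.06 with 10 mM glucose. TK1 was at −0.03 ± 0.11 with acetate, with a 95% interval of −0.24 to 0.18.

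**Figure D5:**
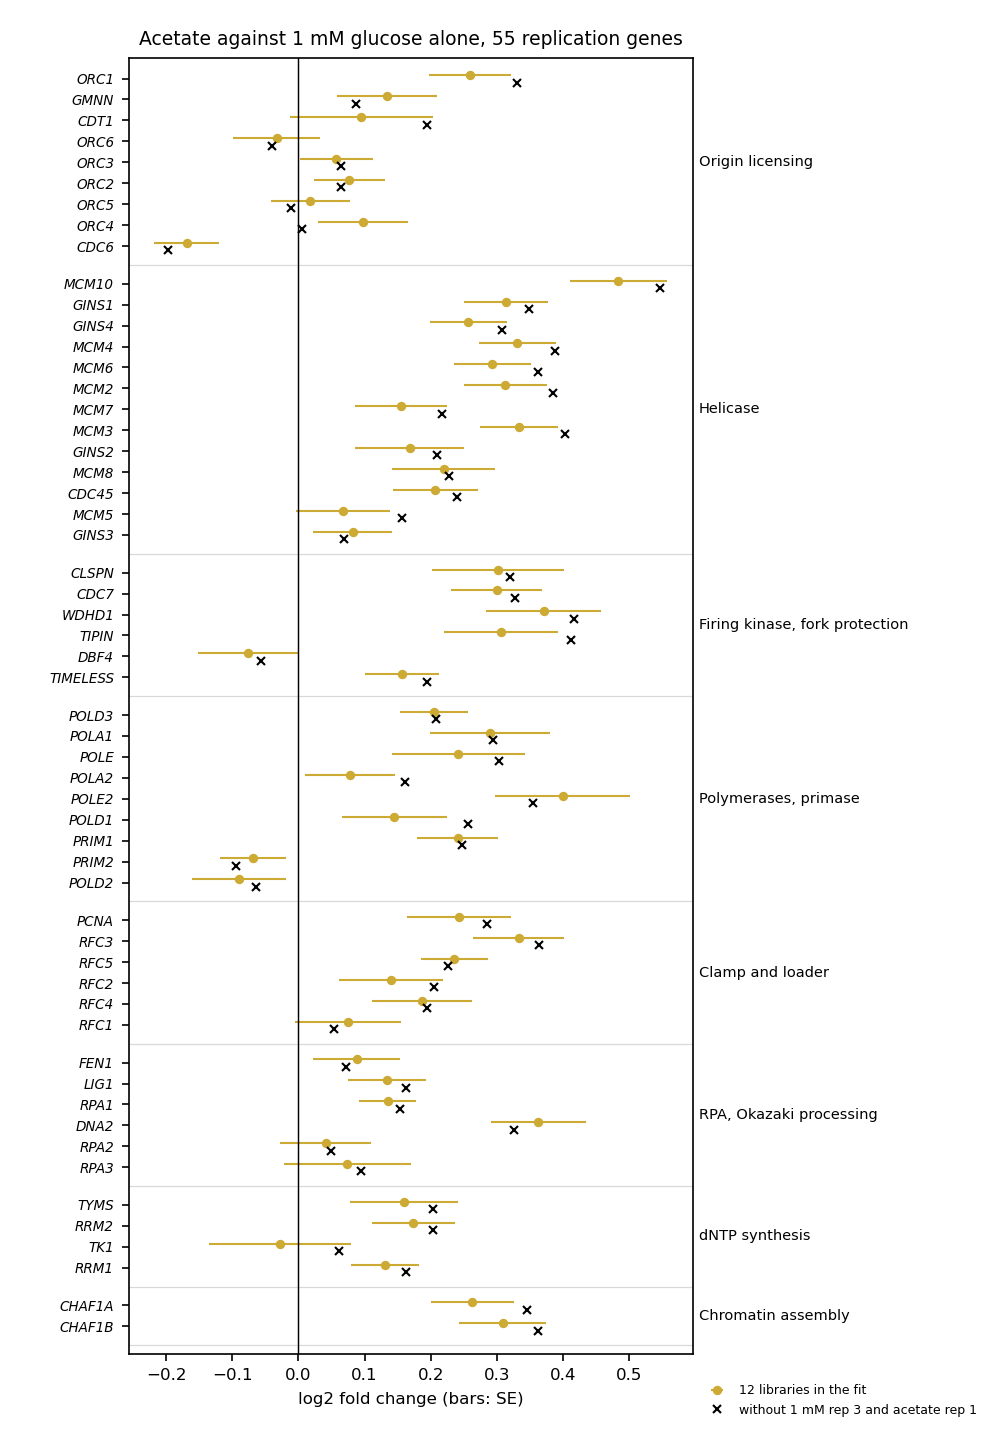
Log2 fold change of each of the 55 genes with acetate against 1 mM glucose alone, with SE as bars for the fit on 12 libraries and crosses for the fit without 1 mM replicate 3 and acetate replicate 1. Most points lie between 0 and 0.48, CDC6 is at −0.17, and 21 genes are called higher in the first fit and 38 in the second.

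The direct comparison of 10 mM glucose with acetate tests how far the responses differed. At 10 mM 42 of the 55 genes were higher than with acetate, 4 were lower (CDC6, ORC4, RFC1 and ORC2) and 9 were not called, against 31% higher and 31.8% lower (62.8% together) of all genes. The median was 0.46, against 0.001 over all genes. All 13 helicase genes, all 4 dNTP genes and both chromatin assembly genes were higher at 10 mM. CLSPN (1.10 ± 0.10), ORC1 (1.07 ± 0.06) and GINS1 (1.04 ± 0.06) differed at least 2-fold, and CDC6 was −0.82 ± 0.05 (log2, SE, edgeR adjusted p = 3.4e-09). In 40 genes all 10 mM libraries lay above all acetate libraries and in 4 below, against 30.8% and 30.1% of all genes. TK1 differed by 0.86 ± 0.11, PCNA by 0.95 ± 0.08 and MCM10 by 0.87 ± 0.07. The 9 without a call were PRIM1, DNA2, TIPIN, RFC4, CDT1, POLD2, RPA3, ORC3 and ORC5. PRIM1 had nearly equal values for glucose (0.23 ± 0.06) and acetate (0.24 ± 0.06), and the difference was −0.01 ± 0.06 with a 95% interval of −0.13 to 0.11. With the length and GC correction the sign turned and PRIM1 was higher at 10 mM (0.20, adjusted p = 0.00233). PRIM1's acetate rise itself (edgeR adjusted p = 0.0177) was not called without 1 mM replicate 1 (adjusted p = 0.0609) or acetate replicate 4 (0.0634). All 9 but ORC3 were called in at least 1 alternative. DNA2 differed by 0.17 ± 0.07 (adjusted p = 0.0511) and was called in 11 of the 20 alternatives, the replicate block among them (adjusted p = 0.015). TIPIN (0.19 ± 0.08) was called in 6, with 0.35 after the length and GC correction (adjusted p = 8.3e-04). RFC4 (0.12 ± 0.08) was called in 4, with 0.29 after that correction (adjusted p = 1.2e-05). The call for ORC2 (−0.14 ± 0.05) ended with library totals (−0.04, adjusted p = 0.533) and without acetate replicate 2 (0.0577) or 4 (0.0908) or 10 mM replicate 2 (0.0815) or 3 (0.101). ORC6, higher at 10 mM by 0.18 ± 0.07, lost its call without acetate replicate 2, 3 or 4 or 10 mM replicate 3 or 4 (adjusted p = 0.0574 to 0.0857). RFC1 lost its call with library totals (−0.17, adjusted p = 0.0781) and TIMELESS with the length and GC correction (0.05, adjusted p = 0.188). Without the 2 libraries that stand apart 48 genes were higher and 4 lower.

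Other genes of the pathway were counted in the same fit from lists chosen with earlier results in view. Of 28 further replication genes, 16 rose and 4 fell at 10 mM glucose, or 57.1% and 14.3%, against 33.7% and 33.8% of all genes. With acetate 2 rose (UHRF1 and NASP) and 1 fell (TOP1), or 7.14% and 3.57%, near or under the 6.65% and 7.09% of all genes. C15orf42 (TICRR, which helps origins fire) rose by 1.54 ± 0.12, the histone chaperone ASF1B by 1.31 ± 0.10 and UHRF1, which brings DNA methylation to new DNA, by 1.27 ± 0.07 (log2, SE). The acetate call of TOP1 (−0.28 ± 0.08) was lost when acetate replicate 2 or 4, or any 1 mM replicate but the third, was left out (adjusted p = 0.0581 to 0.1), and with library totals (0.0514) or only the 8 libraries (0.106). Against most of that list, the topoisomerase TOP1 fell (−0.83 ± 0.08), as did POLE4 (−0.66 ± 0.12), ASF1A (−0.34 ± 0.06) and POLD4 (−0.27 ± 0.10). POLD4, the small subunit of polymerase delta, lost its call without 1 mM replicate 3 (−0.18, adjusted p = 0.0852), 10 mM replicate 2 (adjusted p = 0.053) or 10 mM replicate 4 (adjusted p = 0.0532), with library totals (−0.13) and with the length and GC correction (−0.06). Of 11 further nucleotide genes 5 rose, led by the thymidylate kinase DTYMK (0.48 ± 0.10), the dUTPase DUT (0.48 ± 0.08) and the deoxycytidine kinase DCK (0.44 ± 0.07), and the deaminase DCTD fell (−0.33 ± 0.05), or 45.5% and 9.09%, against 33.7% and 33.8% of all genes. With acetate 1 of these 11 rose (9.09%, near the 6.65% of all genes, namely SAMHD1, a dNTP hydrolase, by 0.32 ± 0.09, edgeR adjusted p = 0.0336) and none fell (edgeR, with 1 and 0 at an unadjusted p under 0.05, and 1 and 0 by DESeq2 and by limma-voom).

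Among 12 regulators of the G1 to S transition, 9 rose and 2 fell at 10 mM, against 33.7% and 33.8% of all genes. E2F2, an activating E2F, had 6.88, 8.54, 9.24 and 8.89 CPM at 1 mM glucose, 11.5, 14.1, 14.8 and 16.8 CPM with acetate, and 41.3, 40.5, 41.8 and 39.8 CPM at 10 mM glucose, with the 3 groups apart and a log2 fold change of 2.28 ± 0.11 (SE, edgeR adjusted p = 1.2e-10). Of the repressive E2F factors, E2F8 rose by 1.72 ± 0.07 and E2F7 fell, at −1.07 ± 0.10. CDKN1A, the inhibitor p21, had 206, 198, 232 and 217 CPM at 1 mM glucose, 153, 148, 158 and 145 CPM with acetate, and 114, 116, 129 and 124 CPM at 10 mM glucose, lowest at 10 mM and in between with acetate (−0.82 ± 0.06 and −0.50 ± 0.06, log2, SE). With acetate 2 of the 12 rose and 1 fell, or 16.7% and 8.33%, against 6.65% and 7.09% of all genes. E2F2 rose by 0.77 ± 0.11 and E2F8 by 0.35 ± 0.07, and the fall was that of CDKN1A. All 14 mitosis genes rose at 10 mM, against 33.7% of all genes, with MKI67 at 2.04 ± 0.16, TOP2A at 1.67 ± 0.10 and AURKA at 1.56 ± 0.06. With acetate edgeR called none of the 14, with 1 higher and 2 lower at an unadjusted p under 0.05. Over all genes 6.65% were called higher and 7.09% lower, so the lack of a call does not set these 14 apart. DESeq2 called 1 higher and 1 lower, and limma-voom none. MKI67, the proliferation antigen, was called with acetate when acetate replicate 1 was left out (0.39, adjusted p = 0.0269) and without both libraries that stand apart (0.30, adjusted p = 0.00951).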

How the data were processed

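RNA from 12 LN229 libraries was sequenced. For every library the authors deposited a table of whole-number counts, not normalized, over 34917 RefSeq transcripts. The build is hg19 per the submitters' processing notes, with aligner, counter and strand setting not given in the sources used here. For each gene the transcript that the authors marked was used (20895 genes), otherwise the one with the highest total (1362 genes). Transcripts of a gene were not summed, since several of the 22 members with more than 1 have equal totals. A marked transcript was used for 49 of the 55 members.

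Counts were fitted with edgeR 4.0.16 in R 4.3.3 (filterByExpr, TMM, quasi-likelihood F test, 12 libraries, 1 mean per group), with Benjamini-Hochberg adjustment over 14416 genes and a threshold of 0.05. SE comes from the F statistic and 95% intervals are 1.96 SE. Differences are the first group minus the second. The procedure was also run on simulated counts in which chosen genes were changed in the acetate group only, with no length trend and no pairing of libraries. That setting does not cover the glucose comparison, in which 67.5% of genes were called. The members and lists were chosen with earlier results of these data known. In the list of further nucleotide genes, 1 gene is not reported here and is left out of its counts. Per-library values were given for MCM2 to MCM7, CDC6, CDT1, PCNA, RRM1, RRM2, TYMS and TK1, for the called members with the highest and lowest glucose change in each role, and for called members against their role. For acetate the 3 highest and 3 lowest called members were named, and in each other list the 3 largest called glucose changes and those against the list. Further members were given by their fold change, and their per-library values or calls, where added, were chosen after seeing the values.

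Same-numbered 1 mM and 10 mM libraries deviated together from their group means (correlations 0.23, 0.53, 0.57 and 0.27). Differently numbered pairs of these groups had correlations of −0.59 to 0.19. The numbers were therefore taken to pair these libraries, from the data and not from the labels. The main fit, whose SE and adjusted p are led with, did not use this pairing. Only the replicate block did, and in that fit the acetate libraries were blocked by number as well. Alternatives were DESeq2 1.42.0 size factors or Wald test, library totals, limma-voom (limma 3.58.1), no filter, a mean of at least 5 CPM, only the 8 libraries compared, the replicate block, the highest-total transcript, leaving out the 2 libraries that stand apart or each library in turn, and a correction within each library for transcript length and GC content (GENCODE v29, a spline of 5 degrees of freedom), alone and together with the block. Transcript lengths and exon overlaps are from GENCODE v29, whose build differs from the counts.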

Additional observations from a re-analysis of the deposited data

Results flagged for a closer look

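Single libraries stood out from the other 3 of their group in 5 of the 87 sets of 4 values examined for the members given by library, by a gap to the nearest that took up most of the group's range, and chance flags about 1 in 20 groups. MCM5 had 235 CPM in 10 mM replicate 3, against 208 to 211 in the other 3, and TK1 had 340 CPM in the same library, against 294 to 295. CLSPN had 105 CPM in 10 mM replicate 2, against 97.3 to 97.9. RRM1 had 154 CPM in 1 mM replicate 1, against 166 to 168, and TIMELESS had 143 CPM in acetate replicate 1, against 166 to 169. The MCM5, TK1 and CLSPN values are the highest of their group and the other 2 the lowest. Acetate replicate 1 is also a library whose values followed transcript length, and its part in the TIMELESS value was not tested.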

How the results depend on the processing

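Over all alternatives 45 of the 49 glucose calls of the 55 genes, 13 of the 22 acetate calls and 42 of the 46 calls of 10 mM glucose against acetate held. Calls were lost for CDT1, ORC4, PRIM2 and RFC1 (glucose), for CDC6, CDC45, CHAF1A, ORC1, POLA1, POLD3, POLE2, PRIM1 and TIPIN (acetate) and for ORC2, ORC6, RFC1 and TIMELESS (10 mM against acetate). Of the genes not called, 4 of 6, 18 of 33 and 8 of 9 gained a call in at least 1 alternative. No called value turned sign. Uncalled values did, in 4, 6 and 3 of the 55 genes. For glucose, library totals moved ORC2 from −0.067 to 0.075, ORC3 from −0.015 to 0.126 and ORC5 from −0.114 to 0.027. The length and GC correction gave 0.064 for ORC3 and 0.024 for ORC5 (0.064 and 0.024 with the replicate block), and ORC3 was 0.002 without the 2 libraries that stand apart. For acetate, library totals moved ORC6 from −0.033 to 0.006 and TK1 from −0.028 to 0.011, and the correction gave 0.002 and 0.043 (0.003 and 0.046 with the block). Without the 2 libraries ORC5 went from 0.018 to −0.012 and TK1 to 0.061, and DTYMK, no member, was −0.001 with DESeq2 size factors and −0.001 in its Wald test. For 10 mM against acetate, PRIM1 (−0.011) was 0.093 with library totals, 0.005 without the 2 libraries, and 0.196 and 0.197 with the correction alone and with the block, where it was called. ORC3 (−0.072) was 0.031, and 0.037 and 0.036 with the correction, which gave 0.005 and 0.005 for ORC5 (−0.132). Leaving out 1 library at a time spanned −0.047 to 0.006 for ORC3 and −0.040 to 0.081 for POLD2 (glucose), −0.014 to 0.052 for ORC5, −0.075 to 0.001 for ORC6, −0.095 to 0.117 for TK1, −0.002 to 0.087 for RPA2, −0.001 to 0.169 for RPA3, 0.000 to 0.218 (the lower end just under 0) for CDT1, −0.082 to 0.111 for DTYMK and −0.008 to 0.209 for ASF1B (acetate), and −0.052 to 0.016 for PRIM1. With library totals the glucose comparison had 1 gene lower in place of 3 and a median of 0.87 in place of 0.73, and 10 mM against acetate had 2 lower in place of 4 and a median of 0.57 in place of 0.46. The share of calls that were higher among all genes went from 49.9% to 63.3% for glucose, from 48.4% to 65.2% for acetate and from 49.4% to 60.8% for 10 mM against acetate. For acetate the count lower was 0 in place of 1 with library totals, without a filter, with only the 8 libraries compared and with the replicate block. The count higher was 38 without the 2 libraries that stand apart, 35 with the length and GC correction, 34 with that correction and the block, 28 when scaled by library totals and, at the lowest, 14 in a fit of the 8 compared libraries alone, in place of 21. Leaving out 1 library at a time gave 44 to 48 higher and 2 to 3 lower (median 0.68 to 0.72) for glucose, 15 to 30 and 0 to 1 (0.14 to 0.22) for acetate, and 41 to 43 and 3 to 4 (0.45 to 0.49) for 10 mM against acetate. The cause of these shifts was not tested. The replicate block gave 46 higher and 2 lower for glucose, where it changed no call but that of RFC1, 21 and 0 for acetate, and 43 and 4 for 10 mM against acetate. For acetate the numbers were not taken to pair the libraries, with correlations of −0.60 to 0.34 against 1 mM and −0.24 to 0.10 against 10 mM. Depth was not varied, and what a greater depth would add was not tested.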
